A study of Homo sapiens with 6 samples.

Results

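Type I interferon-stimulated genes were followed in H69 cells, a line of human cholangiocytes immortalised with a viral T antigen, given TGF-beta or vehicle. Cholangiocytes form the lining of the bile ducts. The genes are a list of 35 symbols, chosen by name with earlier results of these data known. They are IFIT, OAS, IFITM and IFI family genes, RNA sensors, signalling factors, ISG15 with its ligases, and other antiviral effectors. All 35 symbols were found, in 36 rows of the 64253 in the gene table, because IRF9 has 2 rows. The second IRF9 row (ENSG00000259529) is an overlapping locus that shares 38.3% of its exon bases with IRF9 and 36.1% with the neighbouring gene RNF31, so it is not independent of the IRF9 row. A further 2 rows with member names, on alternate sequences, were left out, and both held 0 counts.

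The study asked which genes change when this cell line meets TGF-beta. Cells of both groups were H69 at passages 30 to 32. TGF-beta was the recombinant human protein, given to the treated group for 16 h at 10 ng/ml, and the other group received vehicle; each group has 3 libraries. Whether the replicates came from separate cultures is not in the labels, and a p-value here covers the spread of these libraries alone, which may be technical.

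Type I interferons are secreted when a cell's sensors meet viral or misplaced nucleic acid. They bind the receptor IFNAR1 and IFNAR2, whose kinases JAK1 and TYK2 phosphorylate STAT factors, among them STAT2. A complex of these with IRF9 binds the interferon-stimulated response element (ISRE) before genes whose products sense viral RNA, block viral entry, translation or budding, or feed back on the pathway. Many of these genes also have a basal level without added interferon.

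The ISRE was read before the members' start sites to show what they share beyond their names. Promoter windows, 250 bases before to 50 bases after the RefSeq start (GRCh38.p14), were listed for 28 of the 35 members. The table has no window for IRF7, USP18, IFIT2, OAS2, OASL, IFITM2 and MX2. The ISRE was searched as GAAA, any 2 bases, then GAAA again, on both strands and with overlapping matches counted, and lay in a window of 19 of the 28 members (67.9%), against 4.38% of all 27305 genes listed. A gene with several windows counted if any of them held a match. The stretches below are from members that fell with TGF-beta (HERC5, RSAD2, DDX60, ISG20 and IFIT3) and from members that were not called (ISG15, IFI6 and IFI27). Each runs 5′ to 3′ on the gene's strand, and capitals mark matches to this motif or its reverse complement. For DDX60, ISG20 and IFIT3 a piece of 30 bases is shown, which leaves out the further matches of DDX60 and IFIT3.
HERC5, chr4:88456974-88457074, plus strand: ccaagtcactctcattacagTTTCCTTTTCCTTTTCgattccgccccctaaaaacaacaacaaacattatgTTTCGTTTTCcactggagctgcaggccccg
RSAD2, chr2:6877612-6877661, plus strand: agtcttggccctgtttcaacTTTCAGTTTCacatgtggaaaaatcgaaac
DDX60, chr4:168318821-168318850, minus strand: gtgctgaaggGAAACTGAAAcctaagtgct
ISG20, chr15:88638937-88638966, plus strand: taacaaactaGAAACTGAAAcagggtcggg
IFIT3, chr10:89327831-89327860, plus strand: agccgttaggTTTCATTTTCctcctcccaa
ISG15, chr1:1013364-1013419, plus strand: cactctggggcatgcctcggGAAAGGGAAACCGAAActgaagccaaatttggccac
IFI6, chr1:27672256-27672368, minus strand: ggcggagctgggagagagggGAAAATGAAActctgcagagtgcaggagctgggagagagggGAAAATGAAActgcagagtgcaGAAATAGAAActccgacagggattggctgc
IFI27, chr14:94110608-94110670, plus strand: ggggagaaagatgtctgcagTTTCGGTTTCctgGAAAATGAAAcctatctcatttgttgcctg

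The 2 matches in ISG15 overlap, as do a pair of the 3 in HERC5. IFI6 has 3 separate matches and IFI27 has 2, on opposite strands, while RSAD2 has 1. Another listed window of RSAD2, at 6865635 to 6865934 on chromosome 2, has 0 matches. A match describes the letters and is not evidence of binding. Among the 19 members with a match, 5 were lower with TGF-beta and 0 higher; among the 9 without, DDX58 and IRF1 were lower and XAF1 was higher; and of the 7 with no listed window, IFIT2, OASL and IFITM2 were lower. Of all genes tested, 20.4% were called lower and 19.7% higher. The STAT dimer motif TTCNNNGAA (GAS) was in windows of 9 of the 28 (32.1%), against 9.38% of all genes, and the AP-1 motif TGANTCA in 3 (10.7%), against 9.37%. The palindromic SMAD motif GTCTAGAC was in windows of 0 of the 28 members and of 0.256% of all genes. Each of the GAS, AP-1 and SMAD motifs reads the same on both strands.

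Counts per library summed to between 37205862 and 54160521, and 1 CPM (counts scaled to library size with TMM factors) stood for 35.7 to 56.2 reads. Vehicle replicate 1 stood apart: the second principal component of log2 CPM placed it at 36.6, against -14.9 and -18.7 for vehicle replicates 2 and 3. SMAD7, a feedback inhibitor that TGF-beta signalling induces, was higher in every treated library, at 71.1 to 76.7 CPM against 10.3 to 14.7 CPM in vehicle (log2 fold change 2.48). The bile duct keratins KRT7 and KRT19 had 1538 ± 169 and 326 ± 94.6 CPM in vehicle (SD, n = 3). The 9 leukocyte markers summed to 16.1 to 16.3 CPM in vehicle and 11.98 to 13.5 CPM with TGF-beta, mostly from CD68 and CD14. Of the 3 that could be tested, CD14, a monocyte marker, was called lower and the others were not called, while PTPRC, the gene of the pan-leukocyte antigen CD45, had at most 7 reads and CLEC4C, a plasmacytoid dendritic cell marker, had 0. In these bulk samples, fewer cells expressing a gene and less RNA per cell cannot be told apart.

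With TGF-beta, 10 of the 36 rows were lower and 1 was higher, and 25 were not called (Benjamini-Hochberg adjusted p below 0.05 over 20992 genes tested, from the quasi-likelihood test of edgeR). The rows that fell were IFIT2, HERC5, OASL, DDX60, IFIT3, ISG20, RSAD2, IFITM2, DDX58 and IRF1, and the row that rose was XAF1. Over all genes tested, 40.1% were called, with 20.4% lower and 19.7% higher, so the members' share of falls, 27.8%, was near the background, and their share of rises was 2.78%. The conditions did not overlap for 12 rows (33.3%), against 52.3% of all genes tested. The members' median log2 fold change was -0.02, and that of all genes was -0.01. Of the 11 called rows, IFIT2 and XAF1 passed a 2-fold change, as did 1757 of the 8423 genes called among all 20992 tested. Directions are relative to the TMM scaling: with library totals alone, 7282 genes were lower and 2698 higher, and 11 member rows were lower and 1 higher.

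**Figure D1:**
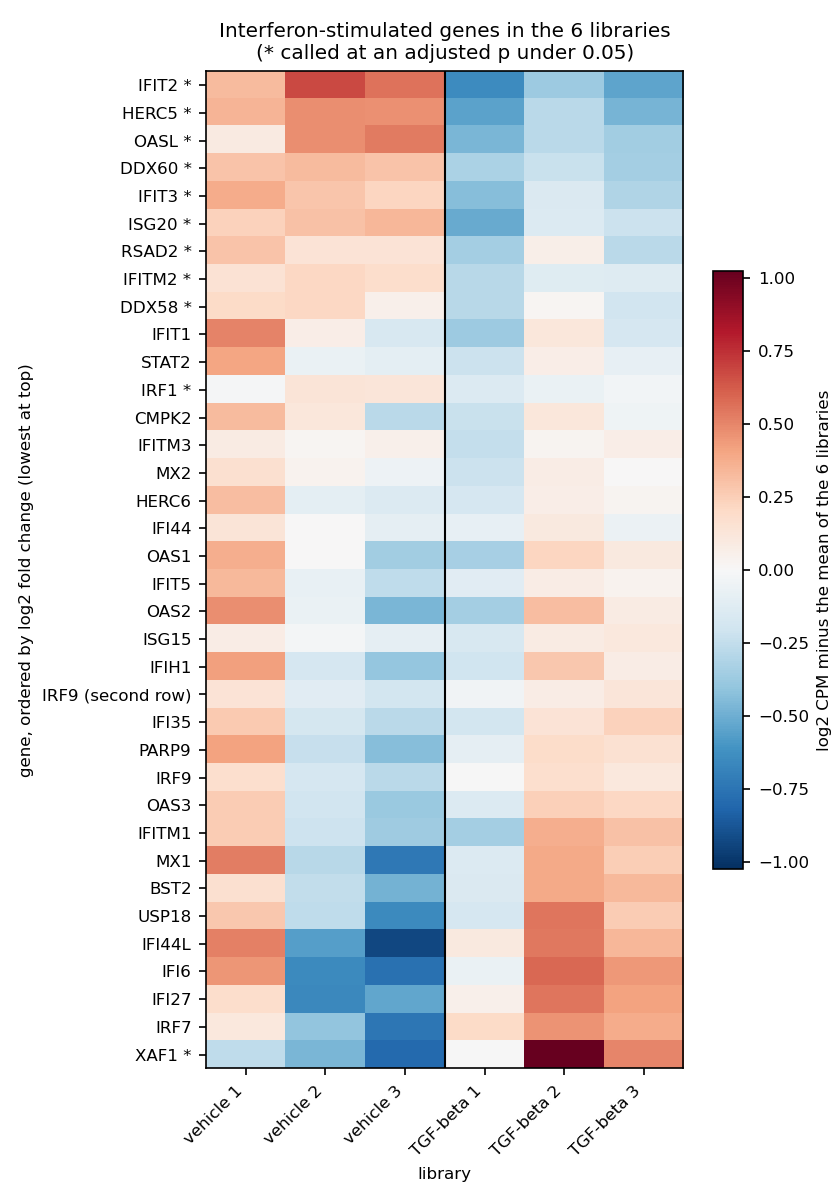
Each row is a member gene and each column a library; colour gives log2 CPM minus the mean of the 6 libraries (red above, blue below), genes run from the lowest to the highest log2 fold change, and asterisks mark called rows. IFIT2 and HERC5 at the top are above their mean in every vehicle library and below it in every TGF-beta library, whereas most rows in the middle and lower part are high in vehicle replicate 1 and in TGF-beta replicate 2.

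XAF1 was called higher with and without vehicle replicate 1, and 9 further rows were called higher without it. Leaving out any other single library gave 1 row called higher. Vehicle replicate 1 held the highest vehicle value for 28 of the 36 rows. Its removal therefore raises their fold changes by construction and is not a separate test. With that library left out, 9 rows were lower and 10 higher, against 25.5% and 24.9% of all genes (50.4% in either direction), and the members' median log2 fold change was 0.14 while that of all genes stayed at -0.01. The rows then called higher were XAF1, IRF7, IFI6, IFI27, IFI44L, BST2, PARP9, IFIT5 and both IRF9 rows. The falls of IFIT2, HERC5, OASL, DDX60, IFIT3, ISG20, RSAD2, IFITM2 and IRF1 were called with and without it, and that of DDX58 was called with it alone (adjusted p = 0.0810 by edgeR without it).

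Among the RNA sensors, DDX60 fell most evenly. DDX60 is a helicase that aids RNA sensing (chromosome 4, 168216293 to 168318807). It measured 183, 187 and 183 CPM in vehicle replicates 1 to 3 and 120, 128 and 117 CPM in TGF-beta replicates 1 to 3. Every vehicle library lay above every treated library, and DDX60 had the smallest vehicle spread of all members, with the highest library 1.02 times the lowest. Its log2 fold change was -0.60 (SE 0.04, adjusted p = 2.68e-06 by edgeR), a fall by 34.1%.

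DDX58, now named RIGI, encodes the RIG-I sensor of viral RNA ends, and had the highest level of the sensors per kilobase of gene length, at 29.4 CPM per kilobase in vehicle. It measured 131, 133 and 119 CPM in vehicle and 94.2, 116 and 100 CPM with TGF-beta. The groups came close without overlapping, at a log2 fold change of -0.30 (SE 0.08, adjusted p = 0.0150 by edgeR). The call was also lost without vehicle replicate 2 or TGF-beta replicate 3. IFIH1, which encodes the long double-stranded RNA sensor MDA5, measured 41.7, 27.5 and 23.6 CPM in vehicle and 27.0, 37.6 and 32.7 CPM with TGF-beta. Its groups overlapped throughout, and it was not called (log2 fold change 0.08, SE 0.27).

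In the signalling group, STAT2 and IRF9, which join in the ISRE-binding complex, were not called. STAT2 measured 149, 107 and 105 CPM in vehicle and 96.6, 118 and 106 CPM with TGF-beta. IRF9 measured 78.0, 61.2 and 57.0 CPM in vehicle and 69.0, 77.7 and 74.3 CPM with TGF-beta. In both genes vehicle replicate 1 was above all other libraries, and without it the log2 fold change was 0.01 for STAT2 and 0.32 for IRF9 (adjusted p = 3.55e-06 by edgeR for IRF9). The second IRF9 row had the highest level of the group per kilobase, at 19.9 CPM per kilobase in vehicle and 21.4 with TGF-beta, and measured 109, 91.2 and 86.6 CPM in vehicle and 96.4, 104 and 107 CPM with TGF-beta (log2 fold change 0.10, SE 0.08, adjusted p = 0.373 by edgeR).

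IRF7, the factor that amplifies interferon production, measured 31.4, 22.1 and 17.5 CPM in vehicle and 33.5, 40.1 and 38.0 CPM with TGF-beta. All treated libraries lay above all vehicle libraries, yet the vehicle spread left it uncalled, at a log2 fold change of 0.66 (SE 0.24, adjusted p = 0.0866 by edgeR). Without vehicle replicate 1 the log2 fold change was 0.91 and the adjusted p was 0.000465 by edgeR. IRF1, a transcription factor that interferons induce, fell a little, from 49.8, 54.9 and 54.5 CPM to 45.6, 47.8 and 49.1 CPM. The gap between the groups was under 1 CPM, the log2 fold change was -0.16 (SE 0.05, adjusted p = 0.0347 by edgeR), and the call was lost in 6 of the 15 alternative analyses: with DESeq2, and without any library other than vehicle replicate 1. An opposite-strand gene, C5orf56, shares 22.0% of the IRF1 exon bases. USP18, the protease that removes ISG15 and dampens the receptor, measured 14.2, 9.80 and 7.44 CPM in vehicle and 10.4, 17.2 and 14.0 CPM with TGF-beta and was not called. Its near copy USP41 holds most of the 23.4% of its 50-base stretches that occur elsewhere.

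ISG15 and its ligases parted. ISG15 is the ubiquitin-like protein that is attached to new proteins in infected cells (chromosome 1, 1001138 to 1014541), and had the highest level of its group at 127 CPM per kilobase in vehicle and 129 with TGF-beta. It measured 127, 119 and 113 CPM in vehicle and 108, 128 and 130 CPM with TGF-beta, and the groups overlapped (log2 fold change 0.03, SE 0.07, adjusted p = 0.820 by edgeR). HERC5, the main human ligase for ISG15 (chromosome 4, 88457117 to 88506163), fell from 52.0, 56.8 and 56.4 CPM to 27.8, 33.7 and 29.3 CPM. No treated library came near a vehicle library, at a log2 fold change of -0.86 (SE 0.07, adjusted p = 6.69e-06 by edgeR). Its neighbour HERC6, on the same chromosome at 88378739 to 88443111, measured 107, 79.8 and 77.5 CPM in vehicle and 76.0, 89.8 and 87.3 CPM with TGF-beta and was not called.

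IFIT genes encode proteins that bind viral RNA and restrain its translation, and the 4 members lie together on chromosome 10. IFIT2 (89301955 to 89309276) had the largest fall of all members, from 149, 190 and 175 CPM in vehicle to 76.3, 91.8 and 81.8 CPM with TGF-beta. The lowest vehicle library, replicate 1, was still well above the highest treated library, and the log2 fold change was -1.04 (SE 0.11, adjusted p = 0.000291 by edgeR). IFIT3 (89327894 to 89340971) had the highest level of the family per kilobase, at 71.5 CPM per kilobase in vehicle. It fell from 200, 187 and 179 CPM to 114, 139 and 124 CPM, with the groups apart, at a log2 fold change of -0.59 (SE 0.07, adjusted p = 0.000192 by edgeR). Of the 50-base stretches in IFIT2 transcripts, 7.50% also occur in transcripts of another gene, AL353751.1.

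IFIT1 and IFIT5, further along the same block, did not pass the test. IFIT1 (89392546 to 89406486) measured 180, 133 and 113 CPM in vehicle and 97.8, 137 and 112 CPM with TGF-beta. Vehicle replicate 1 was its highest library, and the log2 fold change was -0.29 (SE 0.23) with that library and -0.08 without it. IFIT5 (89414586 to 89421001) measured 43.7, 32.9 and 28.9 CPM in vehicle and 32.0, 36.5 and 35.5 CPM with TGF-beta, and its log2 fold change of -0.02 became 0.17 without vehicle replicate 1 (adjusted p = 0.0195 by edgeR).

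OAS proteins make the 2′-5′-linked oligoadenylates that activate RNase L, and OASL is their relative without that activity, which acts on RIG-I. OASL (chromosome 12, 121020292 to 121039242) had the highest level of the family per kilobase, 83.8 CPM per kilobase in vehicle and 50.01 with TGF-beta. It fell from 160, 209 and 218 CPM to 109, 124 and 118 CPM. Vehicle replicate 1 was the lowest vehicle library here, and still above every treated library, at a log2 fold change of -0.74 (SE 0.13, adjusted p = 0.00463 by edgeR). OAS1, OAS3 and OAS2 lie side by side at another place on chromosome 12 (112906777 to 113011723). OAS3 measured 329, 239 and 211 CPM in vehicle and 249, 325 and 318 CPM with TGF-beta. OAS2 measured 58.4, 40.0 and 30.3 CPM in vehicle and 32.8, 52.2 and 44.5 CPM with TGF-beta, a vehicle range of 1.93 times that spanned all treated libraries. OAS1 had the same form, with 35.6 to 59.1 CPM in vehicle and 36.0 to 53.3 CPM with TGF-beta. None of OAS1, OAS2 and OAS3 was called, with log2 fold changes from -0.02 to 0.20.

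**Figure D2:**
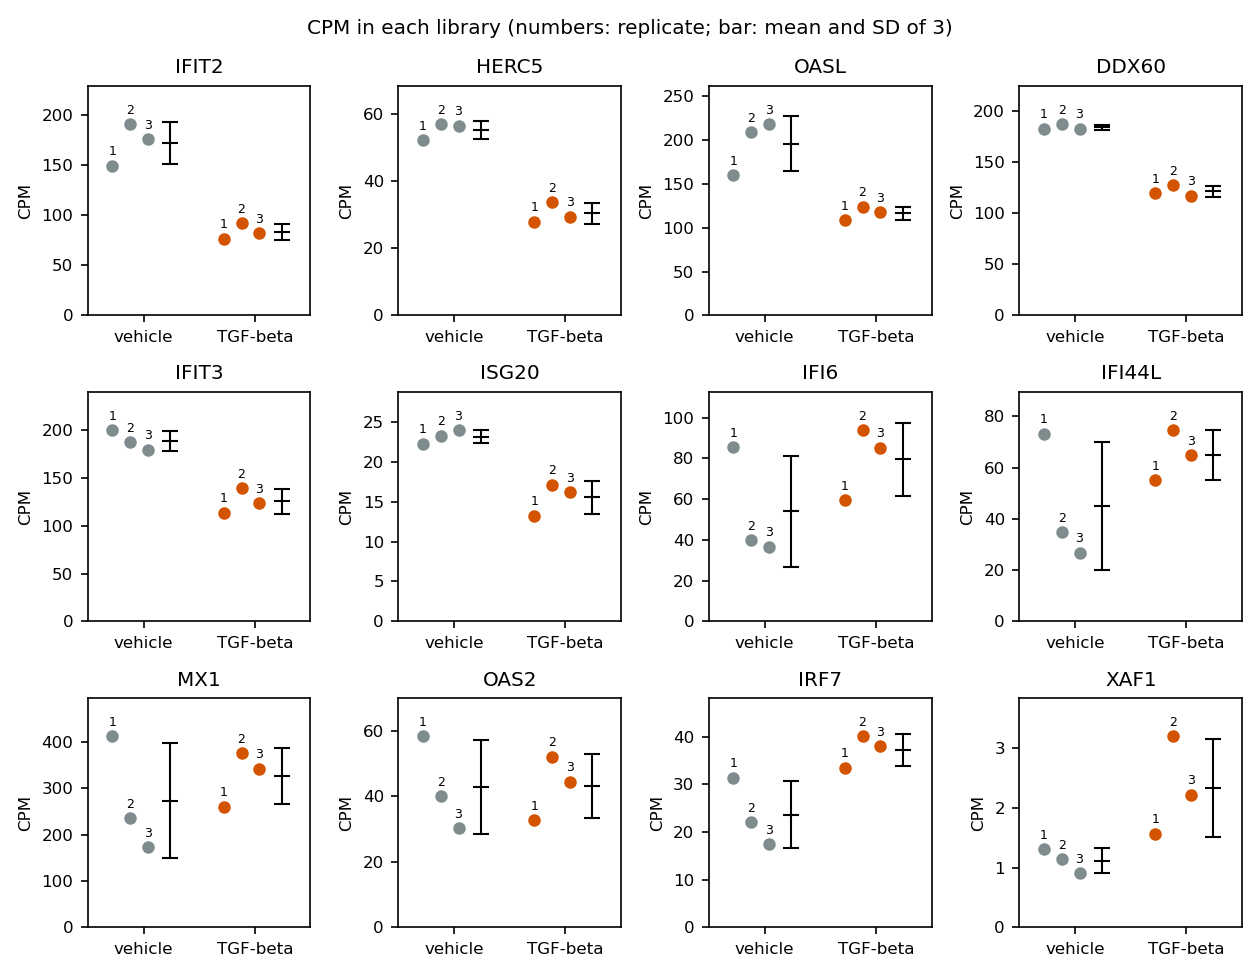
CPM (linear axis from 0) is plotted for 12 members in each library, with the replicate number beside each point and the mean and SD of 3 libraries as a bar. IFIT2, HERC5, OASL, DDX60, IFIT3 and ISG20 separate the conditions, whereas IFI6, IFI44L, MX1 and OAS2 have vehicle replicate 1 within or above the treated range. IRF7 and XAF1 separate upwards.

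IFITM proteins sit in membranes and block viral fusion, and their genes are close copies on chromosome 11. IFITM3 (319669 to 327537) had the highest level of all members per kilobase, 145 CPM per kilobase in vehicle. It measured 200, 191 and 196 CPM in vehicle and 159, 192 and 198 CPM with TGF-beta; TGF-beta replicate 1 alone was low, and IFITM3 was not called (log2 fold change -0.09, SE 0.07, adjusted p = 0.354 by edgeR). IFITM2 (307631 to 315272) fell from 53.7, 56.2 and 55.1 CPM to 39.8, 44.7 and 44.3 CPM. The groups were apart, at a log2 fold change of -0.36 (SE 0.05, adjusted p = 0.000473 by edgeR). IFITM1 measured 12.2, 8.83 and 7.93 CPM in vehicle and 8.03, 13.2 and 12.6 CPM with TGF-beta and was not called. Of their 50-base stretches, 32.0% in IFITM1, 34.1% in IFITM2 and 17.4% in IFITM3 also occur in transcripts of other genes, and IFITM1 and IFITM2 share 351 exon bases, so the split of counts among them is uncertain.

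The IFI group held the widest spread and no called row. IFI6, a mitochondrial and endoplasmic reticulum protein with antiviral action (chromosome 1, 27666061 to 27672218), had the highest level of the group, 62.5 CPM per kilobase in vehicle and 91.9 with TGF-beta. It measured 85.6, 39.8 and 36.7 CPM in vehicle and 59.6, 93.8 and 85.2 CPM with TGF-beta. Vehicle replicate 1 lay within the treated range while the other vehicle libraries lay below it, so the log2 fold change was 0.56 (SE 0.43, adjusted p = 0.375 by edgeR) with all libraries and 1.06 (adjusted p = 0.0424 by edgeR) without that library.

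IFI44L showed the widest vehicle range of any member, 73.3, 34.8 and 26.8 CPM, which is 2.73 times between highest and lowest, and had 55.1, 74.6 and 64.7 CPM with TGF-beta. Its log2 fold change went from 0.54 (adjusted p = 0.414 by edgeR) to 1.08 without vehicle replicate 1 (adjusted p = 0.0245 by edgeR). IFI44, its neighbour on chromosome 1 (78649796 to 78664078), was even, at 103, 94.0 and 87.9 CPM in vehicle and 88.6, 101 and 90.3 CPM with TGF-beta. IFI27, a mitochondrial protein, measured 55.3, 30.9 and 33.7 CPM in vehicle and 50.6, 71.5 and 64.8 CPM with TGF-beta. Its log2 fold change was 0.65 (adjusted p = 0.154 by edgeR) with all libraries and 0.96 (adjusted p = 0.0247 by edgeR) without vehicle replicate 1. IFI35 was at 21.4 to 31.3 CPM in vehicle and 22.9 to 30.7 CPM with TGF-beta.

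Of the other effectors, ISG20 and RSAD2 fell. ISG20, an exonuclease that degrades RNA (chromosome 15, 88636153 to 88656483), measured 22.3, 23.3 and 23.9 CPM in vehicle and 13.2, 17.1 and 16.2 CPM with TGF-beta. The vehicle libraries were tight and wholly above the treated ones, at a log2 fold change of -0.57 (SE 0.09, adjusted p = 0.000540 by edgeR). RSAD2, which encodes viperin, an enzyme that makes a chain-terminating nucleotide (chromosome 2, 6865806 to 6898239), measured 26.9, 24.1 and 24.1 CPM in vehicle and 17.3, 22.8 and 18.1 CPM with TGF-beta. TGF-beta replicate 2 came close to the vehicle libraries. The log2 fold change was -0.37 (SE 0.10, adjusted p = 0.0201 by edgeR), and the call was lost without TGF-beta replicate 1 or 3. CMPK2, the nucleotide kinase gene beside RSAD2 on the opposite strand, had 6.36 to 9.66 CPM in vehicle and 6.58 to 8.36 CPM with TGF-beta and was not called.

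MX1, a dynamin-like GTPase that traps viral nucleocapsids (chromosome 21, 41420304 to 41459214), was the most abundant of this group per kilobase, at 31.7 CPM per kilobase in vehicle and 37.8 with TGF-beta. It measured 412, 235 and 172 CPM in vehicle and 260, 376 and 342 CPM with TGF-beta. Vehicle replicate 1 was the highest of the 6 libraries and vehicle replicate 3 the lowest, so the log2 fold change of 0.26 (SE 0.39, adjusted p = 0.658 by edgeR) was smaller than its error. MX2, next to it, ran from 25.1 to 29.2 CPM in vehicle and from 22.4 to 27.6 CPM with TGF-beta. BST2, or tetherin, which holds budding virions at the surface, measured 10.3, 7.70 and 6.54 CPM in vehicle and 8.28, 12.02 and 11.6 CPM with TGF-beta, and was not called with all libraries (log2 fold change 0.39).

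XAF1, a gene linked to interferon-induced cell death, was the scarcest member and the row that rose. It measured 1.31, 1.14 and 0.906 CPM in vehicle and 1.57, 3.20 and 2.22 CPM with TGF-beta, from 47 to 145 reads a library. The groups did not overlap, but TGF-beta replicate 1 was close to vehicle, at a log2 fold change of 1.08 (SE 0.26, adjusted p = 0.00918 by edgeR). The opposite-strand gene PRAL shares 38.3% of its exon bases, and reads from the pair may not be told apart. PARP9, an ADP-ribosyltransferase that works with the ubiquitin ligase DTX3L, measured 80.8, 51.5 and 44.9 CPM in vehicle and 56.9, 69.2 and 67.6 CPM with TGF-beta (log2 fold change 0.13, SE 0.26, adjusted p = 0.733 by edgeR).

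Most members ordered the replicates of a group alike. Vehicle replicate 1 held the highest vehicle value for 28 of the 36 rows, including all 25 that were not called; over all genes tested it did so for 40.1%. TGF-beta replicate 2 held the highest treated value for 31 rows and TGF-beta replicate 1 the lowest for 35, against 27.0% and 37.2% of all genes. The highest vehicle library was 1.43 times the lowest for the median member and 1.16 times for the median gene tested; the medians among treated libraries were 1.24 and 1.11. Among members called lower the vehicle median was 1.11, and among those not called it was 1.56. The test weighs the spread within a group, so this contrast follows in part from how rows are called. Vehicle replicate 1 and TGF-beta replicate 1 also had the fewest reads of their groups, and the part of depth in these ranks was not tested.

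Summed over the 36 rows, the members took 3457, 2884 and 2662 CPM in vehicle and 2419, 3051 and 2849 CPM with TGF-beta, so the groups overlapped. The IFIT genes summed to 572, 544 and 496 CPM in vehicle and 320, 404 and 353 CPM with TGF-beta. The IFI genes summed to 348, 222 and 207 CPM in vehicle and 277, 369 and 336 CPM with TGF-beta. The IFIT sums of the conditions stood apart and the IFI sums overlapped. Sums also stood apart for the RNA sensors, at 326 to 356 CPM in vehicle and 241 to 282 CPM with TGF-beta. The IFITM sums were apart only narrowly, at 266, 256 and 259 CPM in vehicle and 207, 250 and 255 CPM with TGF-beta. TGF-beta replicate 1 alone was clearly low there, and IFITM2 was the only one of these genes called. In the remaining role groups the sums overlapped.

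**Figure D3:**
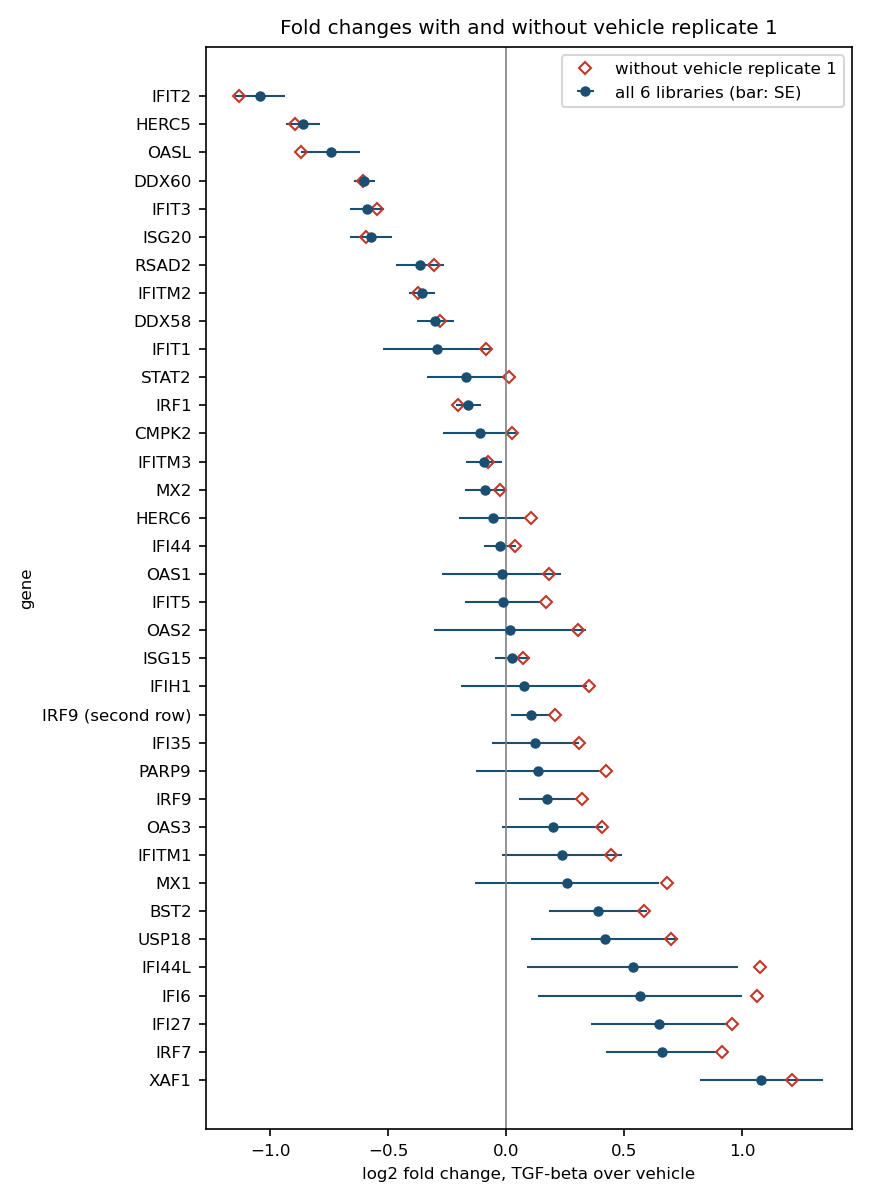
The log2 fold change of TGF-beta over vehicle is plotted for each member from all 6 libraries (filled points, bars are the SE) and without vehicle replicate 1 (open diamonds). The falls from IFIT2 to DDX58 stay close to their place, while IFI44L and IFI6 move from 0.54 and 0.56 to 1.08 and 1.06.

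The rest of the pathway was read in lists of 92 other genes, of which 70 could be tested: ligands, receptors, kinases and STAT factors, negative regulators, nucleic acid sensors, and 43 further interferon-stimulated genes. Of the 70, 17 were lower and 9 higher with all libraries, where 20.4% and 19.7% of all genes tested were. Without vehicle replicate 1, 19 were lower and 25 higher, where 25.5% and 24.9% of all genes were; with library totals alone 28 were lower and 5 higher. Interferon genes themselves were near absent: of 22 ligand genes, 11 had 0 counts in all 6 libraries, a count that allows up to 0.0534 to 0.0840 CPM in a library, for counting error alone. IFNB1, the interferon beta gene that epithelial cells make, had 1 to 3 reads a library in both groups, and IFNL1, an interferon lambda gene, 1 to 8 in vehicle and 5 to 8 with TGF-beta. IFNE was tested, at 0.906 to 1.60 CPM over all libraries, and was not called.

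Among the 6 receptor genes, IFNLR1 rose and none fell with all libraries, where 40.1% of all genes tested were called. IFNLR1, the lambda interferon receptor chain, measured 11.7, 12.5 and 11.9 CPM in vehicle and 14.7, 13.7 and 16.0 CPM with TGF-beta (log2 fold change 0.30, SE 0.07, adjusted p = 0.00862 by edgeR). The type I receptor chains were not called: IFNAR1 had 121 to 127 CPM in vehicle and 121 to 132 CPM with TGF-beta, and IFNAR2 28.3 to 33.2 CPM and 33.1 to 34.3 CPM. Without vehicle replicate 1, 3 receptor genes were called higher (IFNLR1, IFNAR2 at a log2 fold change of 0.21, and IL10RB at 0.13) and IFNGR2 was called lower (-0.18). Over all genes, 50.4% were called without that library.

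Of the 5 JAK and STAT genes, JAK1 rose and JAK2 fell, where 40.1% of all genes tested were called. JAK1, a kinase of the alpha, beta, gamma and lambda interferon receptors, rose from 106, 99.8 and 95.4 CPM to 169, 168 and 162 CPM (log2 fold change 0.73, SE 0.05, adjusted p = 1.30e-06 by edgeR), and every treated library was far above vehicle. JAK2, the partner used by interferon gamma, fell from 22.6, 28.2 and 28.8 CPM to 13.6, 15.0 and 13.1 CPM (log2 fold change -0.94, SE 0.10, adjusted p = 5.02e-05 by edgeR). TYK2 stayed between 135 and 147 CPM in all libraries and was not called.

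**Figure D4:**
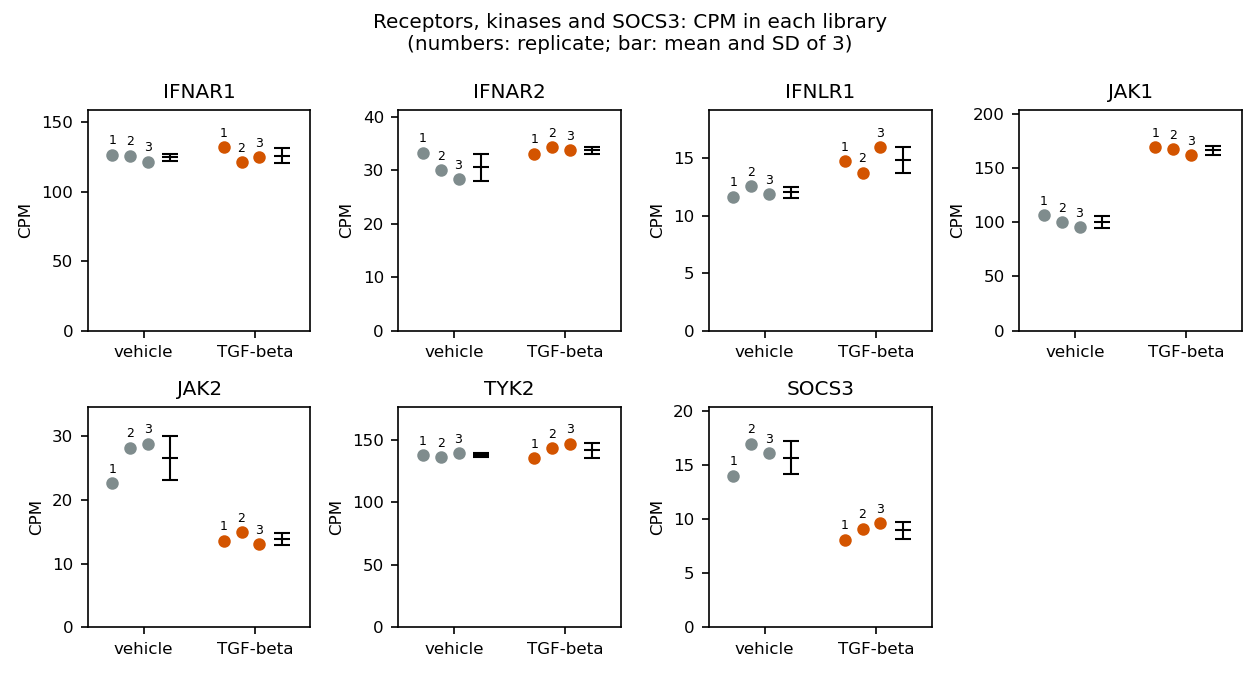
CPM (linear axis from 0) of receptor and kinase genes and SOCS3 is plotted in each library, with replicate numbers and the mean and SD of 3 libraries. JAK1 separates upwards (95.4 to 106 against 162 to 169 CPM), JAK2 and SOCS3 separate downwards, and IFNAR1 and TYK2 overlap.

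Of 7 negative regulators, 3 fell and 0 rose with all libraries, where 40.1% of all genes tested were called; without vehicle replicate 1, PTPN11 was also called, as higher (log2 fold change 0.21). SOCS3, an inhibitor of JAK kinases, fell from 14.0, 17.0 and 16.1 CPM to 8.12, 9.13 and 9.65 CPM (log2 fold change -0.81, SE 0.09, adjusted p = 6.40e-05 by edgeR); PTPN1 and PTPN6 also fell. SOCS1, the inhibitor most tied to interferon signalling, had 0.386 to 0.859 CPM in vehicle and 0.420 to 0.800 CPM with TGF-beta and was not called. In the 11 tested genes of nucleic acid sensing and relay, 3 fell and 2 rose. Without vehicle replicate 1, 4 of them were lower and 5 higher, where 50.4% of all genes were called. IKBKE, a kinase that activates IRF3, fell from 19.4, 23.5 and 24.8 CPM to 13.4, 15.5 and 14.8 CPM (log2 fold change -0.63), and MB21D1, the DNA sensor now named CGAS, rose from 14.0, 14.8 and 15.6 CPM to 17.4, 17.4 and 16.3 CPM (log2 fold change 0.20).

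A list of 43 further interferon-stimulated genes, some of which are also in the lists above, held 11 falls and 5 rises, with a median log2 fold change of -0.03, where 20.4% of all genes tested were called lower and 19.7% higher. Its largest called rise was GBP4, a guanylate-binding GTPase gene, from 7.87, 7.83 and 7.77 CPM to 16.6, 20.9 and 17.1 CPM (log2 fold change 1.22, SE 0.09, adjusted p = 3.14e-06 by edgeR). The largest called fall was APOL6, an apolipoprotein L gene, from 112, 81.4 and 73.3 CPM to 49.8, 59.0 and 54.5 CPM (log2 fold change -0.71, SE 0.18, adjusted p = 0.0340 by edgeR). Vehicle replicate 1 held the highest vehicle value for 33 of the 43 and TGF-beta replicate 2 the highest treated value for 36, against 28 and 31 of the 36 member rows. Without vehicle replicate 1 the list had 11 falls and 16 rises, where 25.5% and 24.9% of all genes were called lower and higher.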

How the data were processed

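RNA sequencing of 6 H69 libraries was read from 1 table. Per the submitters' processing notes, the tools were bcl2fastq, STAR 2.6.1 and featureCounts of Subread, with build hg38. The count columns the authors deposited hold raw read counts, whole numbers with no scaling, per the file headers. The deposited RPKM columns, per the file headers, imply a library total of which the counts make up 41.9% to 43.3%; what that total counts, the strand setting, multi-mapping and the annotation release are not given in the sources used here.

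The conditions were compared on the counts with edgeR 4.0.16 in R 4.3.3: filterByExpr (minimum count of 10), TMM scaling, the robust quasi-likelihood fit with no block, and Benjamini-Hochberg adjustment over 20992 genes, called at an adjusted p under 0.05. The standard error is the log2 fold change over the square root of F. CPM values use TMM. Levels were compared between genes as CPM per kilobase of deposited gene length. The log2 scale of the deposited RPKM served an alternative with limma 3.58.1, and DESeq2 1.42.0 served another. Steps were tested on simulated data.

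Members and lists were chosen with earlier results of these data known. The rule for full values took members that were called without overlap, and the highest of each role group per kilobase; other members are given by values or ranges. Some genes outside the member list are not reported here. Overlaps and 50-base matches used GENCODE 29 (GRCh38). Promoters came from RefSeq (GRCh38.p14), with DDX58 matched as RIGI. No pair of libraries within a condition agreed within counting error (chi-square over its degrees of freedom, 2.50 or more), so none was counted as 1.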

Additional observations from a re-analysis of the deposited data

How the results depend on the processing

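Of the 11 called members, 8 were called in the same direction in every alternative in which they were tested, among them DDX60, HERC5, IFIT2, IFIT3, IFITM2, ISG20 and OASL, and XAF1, which the RPKM filter left out of 2 of the 15. DDX58, IRF1 and RSAD2 lost the call in 3, 6 and 2 of them. IRF1 lost it with DESeq2 and without any library but vehicle replicate 1. Leaving out 1 library gave 8 to 19 called members, with 1 to 10 higher and 7 to 9 lower; 18 to 44 called genes of the pathway lists, with 5 to 25 higher and 12 to 20 lower; and 6259 to 10984 called genes in all, with 3204 to 5428 higher and 3055 to 5556 lower. The largest counts of rises came without vehicle replicate 1, where IFIT5 turned to 0.17. Library totals alone gave 2698 genes higher and 7282 lower, moved the median of all genes to -0.14 and that of the members to -0.15, and gave 5 pathway genes higher and 28 lower; directions are therefore relative to the TMM scaling. Members called higher numbered 3 with no filter, 2 with DESeq2, and 0 with limma on log2(RPKM + 1) or log2(RPKM + 0.1). Those limma settings gave 2406 and 2402 genes higher in all, and 5 pathway genes higher in each. XAF1 did not pass the RPKM filter; the cause of the other shifts was not tested. The replicate numbers do not pair the libraries by the labels, and same-numbered libraries had correlations of deviations of 0.0652, 0.0623 and 0.0129; TGF-beta replicate 3 correlated as well with vehicle replicate 2 (0.0136). With the replicate block, 8577 genes were called, and 10 members were lower and 1 higher as without it. Leaving out rows on alternate sequences changed no count.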
